A study of Mus musculus with 2 samples.

Results

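The clustered protocadherin genes of the mouse lie on chromosome 18, and their DNA was examined by MeDIP-chip, in which an antibody against 5-methylcytosine precipitates methylated fragments that are then hybridised to a tiling array together with input DNA. The window comprised every probed position that starts in the stretch of chromosome 18 (mm9 build) assigned to these genes, which gave 470 of 174638 probes, from 37080033 to 37979422. The sub-clusters were set by position and held 116 probes (alpha), 139 probes (beta) and 154 probes (gamma), and 61 further probes lay between beta and gamma. Both arrays carried DNA of C57BL/6 mouse embryonic fibroblasts (MEFs), connective tissue cells of E14.5 embryos. These had been depleted of cells with CD45, CD31, CD41 or c-Kit and were grown on MEF feeders treated with mitomycin. The untreated array had plain medium, and the thymidine array had cells given 100 µM thymidine for 2 days, with a CD45 sort named in its source label only. Whether feeder DNA was removed, and which culture gave the input of the thymidine array, are not settled by the labels. There was 1 array per group, so no difference has a replicate check, no test was made, and all values describe these 2 arrays. No RNA was measured, so the identity of the cells could not be checked against marker genes.

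Protocadherins of these clusters are cadherin-like proteins of the cell surface, known best from neurons, where each cell shows its own combination of them and uses it to tell its own branches from those of other cells. In the alpha and gamma clusters each variable exon has a promoter of its own and is spliced to constant exons shared by the cluster, while each beta gene is a single exon. Promoter choice is tied to DNA methylation and to the looping factors CTCF and cohesin, and a methylated promoter is as a rule silent. All of these genes are transcribed in the same direction.

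The array covered the window in tiles, which are groups of probes whose starts lie less than 1000 bp apart. There were 61 tiles, with a median of 8 probes each. Gaps of 119360 and 119391 bp divided them into blocks of 15, 22 and 24 tiles. The first tile of the first block runs across the edge of the window and has 2 of its probes inside, which leaves 14 whole tiles there. RefSeq (GRCm38.p6) lists 14 alpha genes, 22 beta genes and, after them, Slc25a2 and Taf7 followed by 22 gamma genes, 24 genes in all, with predicted genes and pseudogenes not counted. The tile counts of the blocks thus equal the gene counts, but the files name no genes and the RefSeq coordinates are of another build, so no tile was assigned to a gene. Of the 8 tiles that the bounds place between beta and gamma, 4 belong to the second block and 4 to the third. Slc25a2 encodes a mitochondrial carrier and Taf7 a subunit of the general transcription factor TFIID.

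The window was dimmer than the rest of the array on both slides. The median processed input signal was 250 on the untreated and 260 on the thymidine array, against 550 and 573 over all probes. The input was well above background at 332 of 470 probes (70.6%, 95% Wilson interval 66.4% to 74.6%) on the untreated array and at 289 (61.5%, 57.0% to 65.8%) on the thymidine array. Over all probes these shares were 88.4% and 81.7%. These intervals cover the counting of probes only, and probes on the same fragments are not independent. The precipitate was well above background at 235 (45.5% to 54.5%) and 225 (47.9%, 43.4% to 52.4%) of the window's probes, against 70.3% and 69.2% over all. Ratios were read only from kept probes, those with input well above background on both arrays, and 289 of 470 were kept (61.5%, background 81.6%). The shares kept were alike in alpha (69 of 116, 59.5%), beta (88 of 139, 63.3%) and gamma (93 of 154, 60.4%). The flanking chromosome within 1 Mb on either side kept 238 of 282 probes (84.4%), a share above that of the window. Window probes were also longer, with 160 of 470 (34.0%) at the maximum of 60 bases against 13.2% over all probes. At the maximum length 27.5% of window probes and 37.2% of all probes were kept, and at the minimum of 45 bases 92.5% and 93.6%. The part of probe length in the dim signal was not tested.

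Signal within a tile was uneven, and in the same direction in most tiles. Probes more than 300 bp to the right of a tile's centre, that is towards higher coordinates, had a median input signal of 589 on the untreated and 583 on the thymidine array. The other probes of the same tiles had 158 and 163. Per tile, the right end exceeded the rest by a median of 1.95 on the log2 scale (SD over 59 tiles 1.49) on the untreated array and by 1.83 (SD 1.53) on the thymidine array. The input was at least 2-fold higher at the right end in 45 of 59 whole tiles on the untreated array (background 28.2% of 20493 tiles) and in 44 on the thymidine array (background 29.2%). It was higher by any amount in 55 and 54 of the 59 tiles (backgrounds 51.0% and 51.1%). It was at least 2-fold lower there in 1 tile and 2 tiles (backgrounds 26.8% and 27.4%). Over the whole array both directions were thus about equally common, while in the window most tiles were brighter at the right end. The size was largest in alpha, with a median of 2.49 and 2.53, against 1.73 and 1.65 in beta and 1.76 and 1.79 in gamma. Right-end probes were short, with a median of 45 bases against 60 for the rest. The right end had the shorter median length in 57 of 59 tiles. Over the whole array it was shorter in 7721 and longer in 7936 of 20493 tiles, so the backgrounds above come mostly from tiles without this layout. Of the right-end probes 139 of 167 were kept (83.2%, interval 76.8% to 88.1%) and 148 of 301 others (49.2%, 43.6% to 54.8%). With kept probes only, the count of tiles at least 2-fold higher was 24 of 42 on the untreated and 21 of 42 on the thymidine array. With the right end taken from the tile's centre it was 29 of 60 on the untreated and 31 of 60 on the thymidine array. Shares over all tiles were not computed at these settings, so these counts have no background. This pattern was noticed in the data, its bound of 300 bp was set after seeing them, and its cause was not tested.

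**Figure D1:**
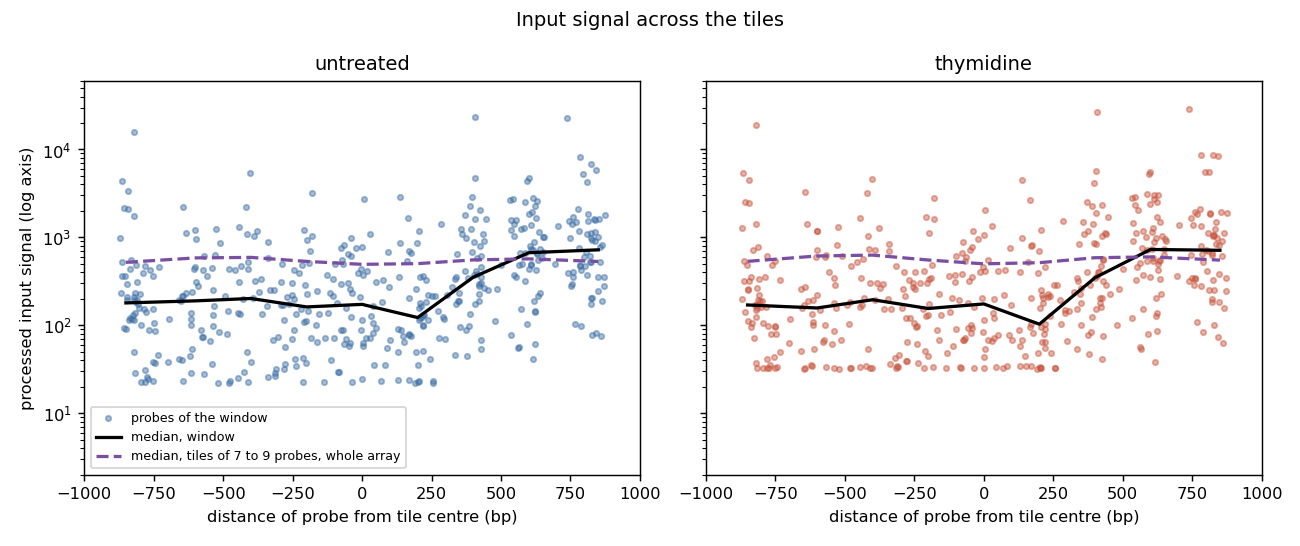
Processed input signal (log axis) of every probe of the window against its distance from the centre of its tile in bp, for the untreated (left) and the thymidine array (right). Solid lines join the window's medians in bins of distance and dashed lines those of all tiles of 7 to 9 probes; the window's median rises from 123 and 103 at 100 to 300 bp to 723 and 714 beyond 700 bp, while the dashed lines stay nearly level.

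The ratio of precipitate to input was given as log2(Cy5/Cy3), centred on the median of the kept probes of each array, so that 0 is the typical probe and 1 is a 2-fold higher ratio. Alpha was the lowest sub-cluster on the untreated array and was below 0 on both, beta lay below 0, and gamma lay near 0. The alpha median was -0.34 (SD over 69 probes 1.01) on the untreated array and -0.12 (SD 1.03) on the thymidine array. Beta had -0.03 (SD over 88 probes 0.92) and -0.19 (SD 0.76). Gamma had 0.05 (SD over 93 probes 0.99) and 0.04 (SD 0.77). The 39 kept probes between beta and gamma had -0.06 (SD 0.74) and 0.05 (SD 0.61). The remainder of chromosome 18, with 3213 kept probes, had 0.05 (SD 0.86) and 0.05 (SD 0.76). Alpha was below gamma by 0.39 on the untreated and by 0.16 on the thymidine array. This order held under 9 other ways of making or filtering the ratios, with differences of 0.22 to 0.42 and of 0.09 to 0.19. It also held for means over probes, with a wider gap on the thymidine array (-0.33 in alpha, 0.00133 in gamma). On the untreated array the gap between means was narrower (-0.42 in alpha, -0.13 in gamma). Without the first and last tile the gap was wider on the untreated array (-0.48 in alpha, 0.05 in gamma). The sign of the beta median did not hold, and it ran from -0.21 to 0.10 on the untreated array and from -0.23 to 0.05 on the thymidine array.

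**Figure D2:**
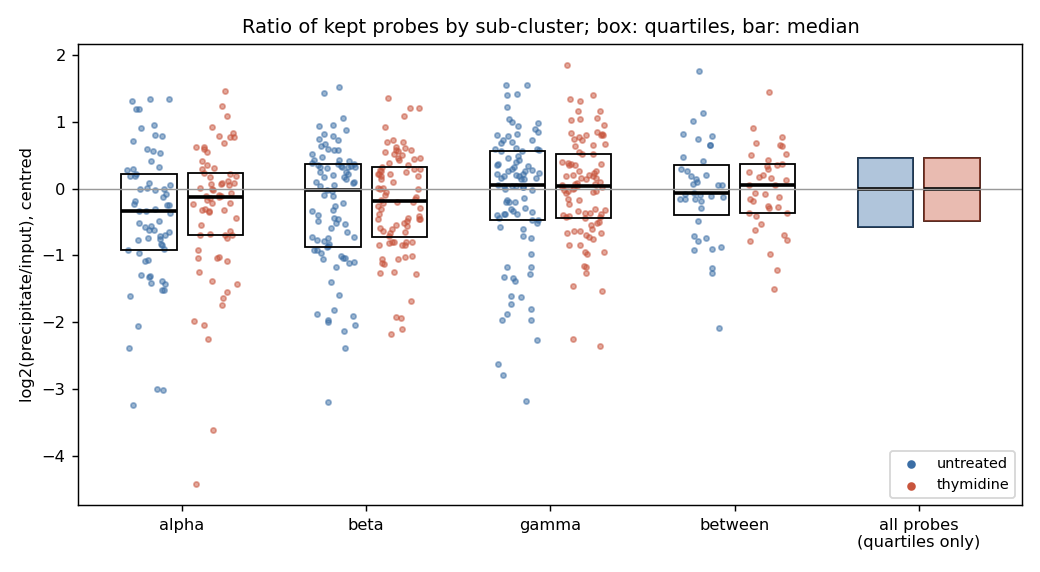
Centred log2 ratio of precipitate to input of each kept probe (points), by sub-cluster and array, with boxes for the quartiles and bars for the medians. The group at the right gives the quartiles of all kept probes of each array; the alpha box of the untreated array lies lowest, from -0.91 to 0.22, and all sub-clusters have long tails towards low ratios.

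Inside the tiles the position of a probe went with its ratio in alpha and beta. In alpha the right-end probes had medians of -0.57 and -0.32 on the untreated and the thymidine array (37 probes), and the others -0.25 and -0.003 (30 probes). In beta these were -0.32 and -0.43 (38 probes) against 0.19 and -0.11 (50 probes). Gamma did not share this order, with 0.16 and 0.07 (47 probes) against 0.04 and 0.03 (46 probes). The filter on dim input removed probes mostly outside the right ends, so the compared probes are selected differently. Without that filter the alpha medians were -0.60 and -0.32 at the right ends and -0.17 and -0.03 elsewhere, and the beta medians -0.45 and -0.42 against -0.05 and -0.16, so the order was the same. By probe length, the 60-base probes of the window had median ratios of -0.15 and -0.14, above the -0.56 and -0.50 of all kept probes of that length, and its 45-base probes had 0.05 and 0.07 against 0.16 and 0.16.

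Tiles with at least 3 kept probes numbered 54 of 61, and their medians ran from -1.32 to 0.95 on the untreated and from -1.08 to 0.92 on the thymidine array. In alpha 8 of 13 such tiles were below 0 on both arrays and 3 above, in beta 9 of 17 and 4, and in gamma 4 of 16 and 10. Over the whole array 40.1% of tiles were below 0 on both arrays and 41.1% above. Alpha and beta thus had more tiles below 0 than above, and gamma more above than below. The share of beta below 0 (52.9%) was nearer the background than that of alpha. Its share above 0 (23.5%) was almost that of alpha (23.1%), and both were under the background. Across the 54 tiles the arrays correlated at r = 0.83, against 0.91 over all tiles, a description over tiles that share probes' sequences and slides. Neighbouring tiles were hardly alike, with r = 0.10 over 53 pairs against 0.45 over 21497 pairs of the whole array. Pairs were formed whatever the gap between the tiles, and a smaller share of probes was kept in the window. The part of either in this contrast was not tested.

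The highest alpha tile, from 37132278 to 37133990, had medians of 0.95 (SD over 3 probes 1.14) and 0.92 (SD 0.68) on the untreated and the thymidine array. Its kept probes read 1.31, 0.95 and -0.83 on the untreated array and 1.24, 0.92 and -0.06 on the thymidine array, so the median hides a wide spread. With no filter on dim probes, where all 8 of its probes count, its mean over the arrays went from 0.94 to -0.77. The tiles from 37302413 to 37303991 and from 37111043 to 37112841 were next, at 0.38 and 0.44 and at 0.14 and 0.12. The lowest alpha tile was that from 37163674 to 37165273, at -1.32 (SD over 3 probes 0.48) and -1.08 (SD 0.50). It was the only tile of the window at -1 or less on both arrays among those with at least 3 kept probes (background 3.49% of tiles). It too turned with no filter on dim probes, from a mean of -1.20 to 0.20 over 8 probes, so both ends of the alpha order rest on the filter. Under the other settings tried, the highest tile stayed at 0.22 or more and the lowest between -1.25 and -0.45. The tiles from 37097752 to 37099203 and from 37104564 to 37106350 followed, with -0.83 and -0.67 and with -0.57 and -0.32. With both channels well above background the mean of the last of these became 0.46, from -0.45. The mean of the tile from 37302413 to 37303991 was -0.02 with no filter, against 0.41, and that of the tile from 37111043 to 37112841 -0.01 with both channels well above background, against 0.13.

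Beta had a narrower range of levels. Its highest tile, from 37478795 to 37480341, had 0.32 (SD over 5 probes 0.95) and 0.58 (SD 0.81). The tile from 37643413 to 37644995 had 0.37 and 0.44 with all 8 probes kept, and the tile from 37636123 to 37637815 had 0.09 and 0.23, with a mean that turned from 0.16 to -0.19 with no filter. At the low end the tile from 37647848 to 37649414 had -0.71 and -0.82 (SD over 4 probes 1.13 on the thymidine array). Its distal probe read 1.05 and 1.36, high on both arrays, and the other kept probes were between -1.81 and -0.49 on the untreated array. The tile from 37600891 to 37602510 had -0.74 and -0.44, and that from 37593980 to 37595709 had -0.72 and -0.39. With both channels well above background the mean of the lowest tile, from 37647848 to 37649414, went from -0.76 to -0.02 over 2 probes. With no filter on dim probes that of the tile from 37600891 to 37602510 went from -0.59 to -0.09. The means of these low beta tiles stayed below 0 under the settings tried, but their sizes depended on the processing.

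Gamma held both high and low tiles. The tile from 37884060 to 37885762 had 0.91 (SD over 4 probes 1.07) and 0.73 (SD 0.76), the tile from 37895290 to 37896983 had 0.69 (SD over 3 probes 0.43) and 0.82 (SD 0.61), and the tile from 37852876 to 37854566 had 0.71 and 0.74. With no filter on dim probes their means over the arrays were lower, at 0.03 against 0.82, 0.18 against 0.76 and 0.28 against 0.72, so their heights rest on the filter. Other tiles lie among these 3, and not all of them were high. The lowest gamma tile, from 37905542 to 37907244, had -0.98 (SD over 5 probes 0.85) and -0.70 (SD 0.45), and only 1 of its 5 probes had a precipitate well above background on both arrays, so its size is uncertain. The tile from 37920156 to 37921898 had -0.48 and -0.52, but its mean of -0.50 was 0.15 with loess, 0.01 with no filter and 0.55 with both channels well above background. The tile from 37843754 to 37845530 had -0.18 and -0.31 and stayed below 0. Gamma also had 4 of the 7 tiles with 2 kept probes, whose medians ran as low as -1.59 and -1.01 in the tile from 37889533 to 37891144 and as high as 0.61 and 0.72 in that from 37873239 to 37874938. The other tiles with 2 kept probes lay in alpha (2 tiles, 1 of them at the window's edge) and in beta (1 tile).

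**Figure D3:**
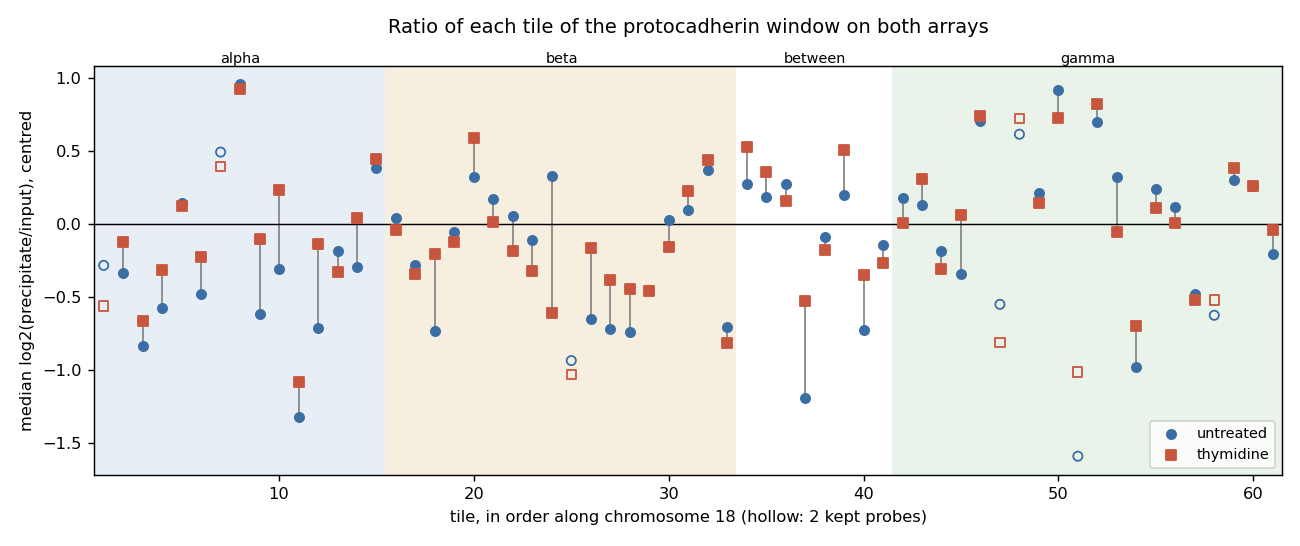
Median centred log2 ratio of precipitate to input of each tile, in order along the chromosome, on the untreated (circles) and the thymidine array (squares), joined by a line; hollow symbols are tiles with 2 kept probes. High and low tiles occur in all sub-clusters, from -1.32 to 0.95 on the untreated array among tiles with at least 3 kept probes, and both arrays mostly give a tile the same side of 0.

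The last tiles of alpha and of gamma stand apart from the others by gaps of over 30 kb. RefSeq places the C-type genes, which differ from the other members in being switched on in most neurons, at these ends (Pcdhac1 and Pcdhac2, and Pcdhgc3, Pcdhgc4 and Pcdhgc5). The gaps of 68.2 and 52.2 kb in alpha and of 39.0 kb in gamma set off 2 and 3 tiles, the same numbers as those genes, but again no tile was assigned. In gamma the 3 distal tiles kept 24 of 25 probes (96.0%), and the other 17 tiles kept 69 of 129 (53.5%). In alpha the 2 distal tiles kept 12 of 17 probes (70.6%) and the others 57 of 99 (57.6%). The median ratios of the distal alpha tiles were -0.05 (SD over 12 probes 0.81) and 0.15 (SD 0.61), against -0.48 (SD 1.04) and -0.22 (SD 1.07) in the rest of alpha. The distal gamma tiles had 0.10 (SD over 24 probes 0.99) and 0.21 (SD 0.76), against 0.05 and 0.03. The distal tiles also had shorter probes, with a median of 45 bases in both sub-clusters against 56 in the rest of alpha and 53 in the rest of gamma. Their input was brighter, with untreated medians of 481 against 250 in alpha and 476 against 205 in gamma. The part of probe length and input signal in these contrasts was not tested. The distal tiles were singled out after the spacing of the tiles was seen.

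Single probes reached further than tiles. A ratio of at least 1 on both arrays was found at 13 of 289 kept probes (background 5.15%), each in a tile of its own. All 13 had a precipitate well above background on both arrays. This follows largely from picking high ratios among probes with input well above background. Of the 13 probes, 6 lay in gamma, 3 in alpha, 3 in beta and 1 between beta and gamma. The highest on the untreated array was the probe from 37803776 to 37803820, between beta and gamma, at 1.76 and 1.44, with precipitate signals of 2083 and 2305 against inputs of 588 and 841. The highest on the thymidine array was the gamma probe from 37978964 to 37979008, at 1.55 and 1.85. Ratios of -1 or less on both arrays were found at 32 probes in 22 tiles (background 10.1%), 13 of them in alpha, 11 in beta, 6 in gamma and 2 between. Over the window the shares of high and of low probes were both near their backgrounds. By sub-cluster, alpha had 13 of its 69 kept probes at -1 or less on both arrays and gamma 6 of its 93. This split was not tested. In 3 tiles both high and low probes occurred, whether or not next to each other. Only 6 of the 32 low probes had a precipitate well above background on both arrays, so most of their sizes are uncertain. On the untreated array 54 kept probes (18.7%, interval 14.6% to 23.6%) were at -1 or less (background 15.0%) and 18 (6.23%, 3.98% to 9.63%) at 1 or more (background 7.17%). On the thymidine array these were 38 (13.1%, 9.73% to 17.5%, background 11.3%) and 17 (5.88%, 3.70% to 9.22%, background 7.60%).

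The other question was whether the ratio differed with thymidine. Over the window the median difference, thymidine minus untreated, was -0.00029 (SD over 289 probes 0.41), with 144 probes higher and 145 lower. The median over all kept probes was 0.07 (SD 0.36) and that over the rest of chromosome 18 was 0.06 (SD 0.36). The window's median was thus below that of the whole array in the main setting, by an amount that depended on the processing. Window medians were also lower with raw signals (0.04 against 0.06 over all), loess (-0.01 against 0.05) and quantile normalisation (-0.04 against 0.0036). The same held with no filter on dim probes (0.04 against 0.06) and with both channels well above background (-0.02 against 0.04). With normexp background correction the medians were nearly equal, at 0.046 in the window and 0.0475 over all. Among the settings for the ratio, only the authors' deposited table had the medians the other way round, at -0.02 and -0.05. Means over probes in the main setting were also the other way round. They were 0.0826 in the window, 0.0761 over all kept probes and 0.0676 over the rest of chromosome 18. In the precipitate signal alone the window's median was 0.02, where the median over all kept probes was set to 0 by centring. That value is thus not comparable with those of the ratio. By sub-cluster the medians were 0.06 (SD 0.41) in alpha, -0.03 (SD 0.40) in beta and -0.01 (SD 0.45) in gamma. Their signs did not hold across the other settings for the ratio, with single channels left out. These settings gave -0.02 to 0.08 in alpha, -0.10 to 0.07 in beta and -0.04 to 0.03 in gamma. Relative to the median over all kept probes, the input signal differed by a median of -0.04 in alpha, 0.07 in beta and 0.03 in gamma, and the precipitate by 0.03, -0.02 and 0.01.

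At the level of tiles, 24 of 54 were higher after thymidine and 30 lower, where 65.1% of all tiles were higher. A count required a median difference of 0.5 or more in either direction, with the same sign at 80% or more of the tile's probes. By this rule 1 of 54 tiles was counted as higher (background 0.706%) and none as lower (background 0.0558%). This was the beta tile from 37459161 to 37460816, with ratios of -0.73 (SD over 5 probes 0.44) on the untreated and -0.21 (SD 0.46) on the thymidine array. Its kept probes read -0.39, -0.73, -0.83, -0.78 and 0.22 on the untreated array and -0.15, -0.46, -0.26, -0.21 and 0.73 on the thymidine array, so each was higher after thymidine. Its median difference was 0.50 (SD 0.16), just at the threshold, with an input difference of -0.16 and a precipitate difference of 0.17. The tile missed the threshold under most other settings, at 0.48 when centred on all probes, 0.46 once the trend with level was taken out, 0.31 without the filter on dim probes and 0.29 in the authors' deposited table. It passed with ratios centred on the rest of chromosome 18 (0.50) and with both channels well above background (0.51). The tile from 37676712 to 37678488, between beta and gamma, had a larger difference of 0.58 (SD over 3 probes 0.45) from -1.19 to -0.53, but 1 of its 3 probes went the other way, and its single probe measured in both channels differed by -0.16. The gamma tile from 37905542 to 37907244 was higher by 0.35 (SD 0.47), with 4 of 5 probes higher, but its precipitate differed by -0.15 and its input by -0.42.

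On the lower side the differences were smaller. The beta tile from 37559209 to 37560829 had a median difference of -0.28 (SD over 3 probes 0.57), and 0.14 with no filter on dim probes. The alpha tile from 37104564 to 37106350 had -0.28 (SD over 7 probes 0.49), although the medians of its levels moved the other way, from -0.57 to -0.32. With normexp background correction its difference was 0.10. In both the difference was smaller than the SD over probes. The gamma tile from 37900448 to 37902053 differed by -0.26 (SD over 4 probes 0.15), with all 4 probes lower and ratios of 0.32 and -0.06. Its precipitate signal differed by -0.31, and its difference was -0.22 in the authors' deposited table.

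**Figure D4:**
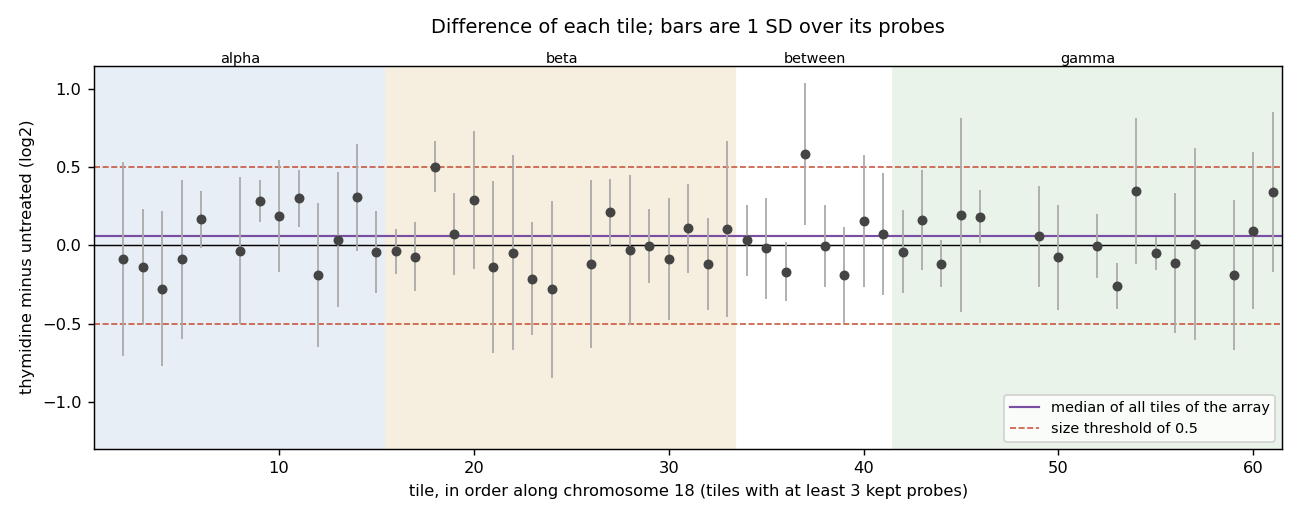
Median difference in log2 ratio, thymidine minus untreated, of each of the 54 tiles with at least 3 kept probes, with bars of 1 SD over its probes; dashed lines mark a size of 0.5 and the solid coloured line the median of all tiles, 0.06. Most tiles scatter about 0 within their bars, and only 2 reach 0.5, at 0.50 and 0.58.

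Of single probes, 8 of 289 had a difference of at least 1 (background 1.07%) and 1 of -1 or less (background 0.0926%). Gamma held 6 of the 8, in 6 tiles, with alpha and beta having 1 each. The largest was the probe from 37848418 to 37848477 in gamma, which went from -1.62 to 0.06, a difference of 1.68. All 8 had low ratios on the untreated array, from -3.20 to -1.61, and none had a precipitate well above background on both arrays, so their sizes are uncertain. Their input was lower on the thymidine array at all 8 probes, by a median difference of -0.61, beside a precipitate difference of 0.42, and the part of either in the result was not tested. Against the scanner software's own error of each difference, with a median of 0.37 in the window, 11 probes (3.81%) differed by more than 2 errors (background 2.95%). Of these 9 were higher after thymidine, 4 in alpha and 5 in gamma, and 2 were lower, both in beta. At both lower probes, from 37601844 to 37601888 and from 37644313 to 37644370, the ratio went from 0.63 to -0.01 and from 0.34 to -0.29 while the precipitate signal stayed nearly level, at 2694 and 2655 and at 3773 and 3668. The input signal was higher on the thymidine array at both, at 2653 against 1663 and at 4442 against 2850.

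The authors' deposited table gave all 470 probes a log ratio, whose column medians were -0.01 and -0.02. In this table alpha had the lowest median over kept probes on both arrays, whereas beta was lowest in the scanner ratios of the thymidine array. The alpha median was -0.20 on each array, against 0.01 and -0.07 in beta and 0.03 and -0.02 in gamma. Its values within the window correlated with the scanner ratios at 0.89 on the untreated and 0.84 on the thymidine array, across probes that are not independent. Ratios of -1 or less were rarer in it, at 10 and 8 probes of the window, and at least 1 was reached at 1 and 0 probes.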

How the data were processed

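The deposited intensity values are, per the file headers, processed signals (background-subtracted and scaled between dyes) and raw median signals from Agilent Feature Extraction 11.0.1.1 on an mm9 grid. Per the labels, sonication gave fragments of 200 to 1000 bp, and Cy5 marked the precipitate and Cy3 the input on both arrays, so dye bias was not balanced. The log10 ratios in the files equalled those of the deposited processed signals within 1e-06 at 97.4% and 96.9% of probes, and their log10 errors, per the file headers, gave the scanner error of a difference. The authors' table of log ratios was taken as log2 from its slopes of 0.93 and 1.07 against the log2 ratio of raw signals averaged within 300 bp (r = 0.94 on each array). No source used here gives its log base, centring or smoothing.

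Of 180465 spots, 5827 control spots were left out. Probes were kept with no outlier flag and with input well above background on both arrays (142569). Ratios were centred on the median of these, with no loess or quantile step, and tiles needed 3 kept probes. The named tiles are the 3 highest and 3 lowest of each sub-cluster by mean ratio and the 3 highest and 3 lowest differences of the window. Other probes and tiles were singled out after their values were seen. Members and lists were chosen with earlier results of these data known. The regulator and neighbouring genes listed in advance were not analysed here, for want of an annotation of this build. Alternatives used limma 3.58.1 in R 4.3.3 (normexp with an offset of 50, and loess) and Python 3.11.15. The counting of tiles was tested on simulated data, with independent noise and shifts well past the threshold of 0.5. That test does not cover differences near the threshold, such as that of the 1 counted tile. Slide and group cannot be told apart. No spot of the window was saturated (0 of its spots). The number of arrays limits the precision.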

Additional observations from a re-analysis of the deposited data

How the results depend on the processing

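Medians by sub-cluster mostly stayed within their 95% binomial interval over probes, which covers the sampling of probes only. The exceptions were means in place of medians, which gave -0.33 for the alpha level on the thymidine array, -0.23 for the window level on the untreated array, 0.13 for the gamma difference and 0.0826 for the window difference, and the window difference of -0.0437 with the level trend removed and of -0.0381 with quantile normalisation. Counts depended more on the processing, and the number of window probes behind them also differed. It was 470 with no filter on dim probes, 215 with both channels well above background and 289 at the other settings. Shares over all probes were not computed at the alternative settings, so these probe counts have no background. On the untreated and the thymidine array, window probes at -1 or less numbered 9 and 5 with normexp, 26 and 9 with raw signals, 31 and 23 with loess, 102 and 60 with no filter on dim probes, 20 and 12 with both channels well above background, and 10 and 8 in the authors' deposited table. Probes at 1 or more numbered 4 and 5 with normexp, 11 and 11 with raw signals and 1 and 0 in the authors' deposited table, and 30 on the untreated array with no filter. Probes with a difference of at least 1 numbered 0 with normexp, with both channels well above background, with the input alone and in the authors' deposited table, 3 with raw signals, 1 with the precipitate alone, with quantile normalisation and once the trend with level was taken out, and 14 with no filter. Those at -1 or less numbered 0 with normexp, raw signals, both channels well above background, the input alone and the authors' deposited table, 2 with loess, 4 with quantile normalisation and 3 with the level trend removed. The count of 1 higher tile became 0 with normexp, raw signals, loess, quantile normalisation, centring on all probes, no filter, level trend removed, single channels and the authors' deposited table. From the input alone the difference of that tile (37459161 to 37460816) was -0.16, a reversal that the denominator gives by construction. The count of tiles with a bright right end was 24 and 21 with kept probes only, where 42 tiles could be used. It was 29 on the untreated array with the right end taken from the tile's centre. No share over all tiles was computed at these settings. Of the tiles named by level or difference, several changed sign under a setting, as given beside their values in the report. For the other changes the cause was not tested. Tile gaps of 500 and 2000 bp, medians of tile medians, sub-clusters without their first and last tile, and blocks split at gaps over 100 kb (chosen after seeing the data) changed none of these values past its limit. Ratio levels have no value for single channels or the level trend. No paired analysis was possible because each group has 1 array. Depth on an array is signal over background, and the dim input limits every ratio of this window.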
